A study of Mus musculus with 12 samples.

Results

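The MAP kinase phosphatases and feedback inhibitors described here are 10 genes: the dual-specificity phosphatases Dusp1, Dusp2, Dusp4, Dusp5 and Dusp6, the Sprouty genes Spry1, Spry2 and Spry4, and Zfp36 and Btg2. They are a list of gene names drawn up with earlier results of these data known, and the rule itself uses no measured value. All 10 were found among the 37583 genes of the deposited table. All 10 also passed the filter on low values that left 11211 genes for testing (genes whose value reached 1 in 4 or more libraries). The samples were wild type mice that had received a burn with a tenotomy, the cutting of a tendon. Their blood was enriched on the iChip, a microfluidic sorter, and sequenced as total RNA. The labels call the enriched material circulating mesenchymal progenitor cells (cMPCs) with blood cells. The 3 groups of 4 libraries are named 6h, Day1 and Day7 by the time between injury and blood draw. All groups share the genotype and the injury, the mice's age is not given in the labels, and an uninjured group was not analysed here.

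MAP kinases are enzymes that carry signals from receptors at the cell surface to the nucleus, and their best known branches are ERK, p38 and JNK. The same signals switch on genes whose products shut the pathway down again. The MAP kinase phosphatases of the Dusp family remove the phosphates that keep MAP kinases active. Sprouty proteins act upstream, between receptor tyrosine kinases and the kinases that activate ERK. Zfp36 (tristetraprolin) binds AU-rich stretches of cytokine mRNAs and has them degraded, and Btg2 binds the CCR4-NOT complex, which shortens the poly(A) tails of mRNAs. Zfp36, Btg2 and Dusp1 are also known as genes that respond within minutes to growth factors or stress.

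The values come from the authors' table and are reads per gene scaled to an effective library size, called deposited values here. The libraries held 5098395 to 12379041 reads, and 1 read was worth a deposited value of 0.0314 to 0.617. Haemoglobin genes took 16.1% to 70.3% of the reads. Genes with at least 1 read numbered between 7631 in 6h replicate 1 and 16647 in Day1 replicate 2, and the second lowest number was 7635, in Day7 replicate 3. Reads of Y-linked genes were found in 6h replicates 3 and 4 and in Day1 replicates 2, 3 and 4, but in none of the Day7 libraries, so the libraries also differed in the sex of the animals. Of 14 markers of mesenchymal progenitors and fibroblasts, 10 had reads in at least 10 of the 12 libraries, and Dcn, Col3a1, Col1a1 and Pdpn had reads in all 12. The other 4 were Pdgfra, Pdgfrb and Lum, each at 0 in 7 libraries, and Prrx1, at 0 in 6. The platelet gene Pf4 had reads in all 12 libraries. Whether replicates came from separate mice is not stated in the labels, and p-values therefore rest on differences among libraries that may be partly technical.

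Promoter windows from RefSeq (assembly GRCm38.p6) were searched for 8 of the 10 genes, and none of these coordinates is in the build used for the reads. No window was found for Dusp4, and Spry4 was left out of the search. Each window searched holds 250 bases before and 50 bases after the start of the gene, and both strands were read. The 4 windows shown are those that held a motif of signal-responsive transcription factors, and the 200 bases before the start are printed. Capitals mark the CRE (TGACGTCA, the motif of the CREB family), its core TGACGT on either strand, which overlaps the CRE, and the CArG box, the motif of serum response factor.
Zfp36 (chr7:28379229-28379428, minus strand): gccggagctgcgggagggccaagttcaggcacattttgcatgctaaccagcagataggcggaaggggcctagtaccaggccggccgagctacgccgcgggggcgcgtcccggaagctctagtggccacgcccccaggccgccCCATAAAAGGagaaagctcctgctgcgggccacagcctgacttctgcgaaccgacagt
Btg2 (chr1:134079156-134079355, minus strand): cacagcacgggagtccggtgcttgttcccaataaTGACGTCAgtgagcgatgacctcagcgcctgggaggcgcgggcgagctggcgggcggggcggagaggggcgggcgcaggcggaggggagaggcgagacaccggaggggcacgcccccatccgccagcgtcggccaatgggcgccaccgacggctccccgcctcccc
Dusp1 (chr17:26508473-26508672, minus strand): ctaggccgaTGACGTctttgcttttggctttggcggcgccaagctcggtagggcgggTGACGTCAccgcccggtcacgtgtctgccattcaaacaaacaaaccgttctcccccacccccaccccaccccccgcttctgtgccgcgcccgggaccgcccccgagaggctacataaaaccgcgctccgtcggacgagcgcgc
Dusp5 (chr19:53528945-53529144, plus strand): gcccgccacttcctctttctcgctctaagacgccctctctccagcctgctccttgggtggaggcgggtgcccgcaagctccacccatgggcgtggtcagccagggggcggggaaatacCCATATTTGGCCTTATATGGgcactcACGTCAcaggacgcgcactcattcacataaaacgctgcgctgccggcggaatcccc

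The CRE was present in the windows of Dusp1, 143 to 136 bases before the start, and Btg2, 166 to 159 bases before it. Among all 32851 windows searched, which did not cover every chromosome, 1.79% held a CRE. The shorter CRE core was in 7.51% of all windows and in 3 of the 8 windows of these genes, those of Dusp1, Btg2 and Dusp5. A CArG box lay 58 to 49 bases before the start of Zfp36, and a pair of them lay side by side before Dusp5, 82 to 73 and 72 to 63 bases before its start. CArG boxes were present in 1.63% of all windows. The AP-1 motif TGANTCA was in 0 of the 8 windows and in 7.81% of all windows. The GC box GGGCGG, common in promoters, was in 6 of the 8 windows and in 35.7% of all windows. These are matches of letters and do not show that a factor was bound.

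Levels of different genes were compared per kilobase of the gene length given in the table. Dusp1, Zfp36 and Btg2 were the 3 highest of the 10 genes per kilobase in 12 of 12 libraries. Their mean values per kilobase at 6h were 63.9 ± 30.5 for Dusp1, 49.9 ± 25.1 for Zfp36 and 39.2 ± 10.6 for Btg2 (SD, n = 4). At Day1 the order was Zfp36 at 93.0 ± 70.6, Btg2 at 74.3 ± 27.6 and Dusp1 at 68.9 ± 54.2 per kilobase (SD, n = 4). At Day7 Dusp1 stood at 17.3 ± 11.7, Btg2 at 17.2 ± 17.6 and Zfp36 at 10.7 ± 9.54 per kilobase (SD, n = 4). The means of neighbours among these 3 genes overlapped within their SDs at every time, so their order was not resolved. The next gene of the order was Spry2 at 6h with 2.84 ± 2.82, Dusp5 at Day1 with 7.22 ± 4.31 and Spry1 at Day7 with 3.15 ± 3.33 per kilobase (SD, n = 4). Depth followed the levels. Over all libraries Dusp1 had 28775 reads, Btg2 19208 and Zfp36 15839, against 105 for Spry4 and 175 for Dusp4.

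**Figure D1:**
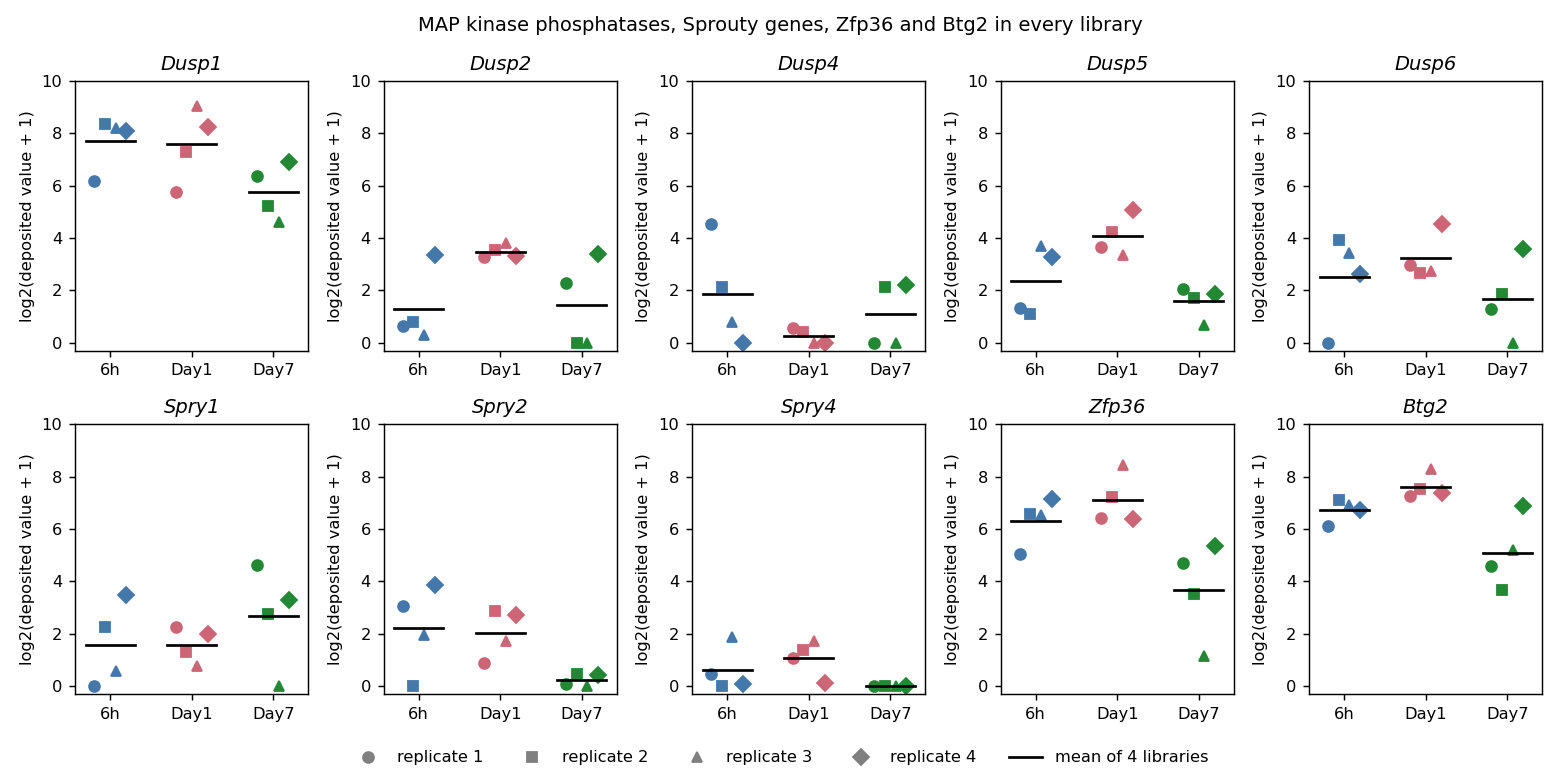
Each panel shows 1 gene, with the 4 libraries of 6h, Day1 and Day7 as points on the log2(deposited value + 1) scale. Most points of Dusp1, Zfp36 and Btg2 lie above those of the other genes, with overlap at Day7, and in Zfp36, Btg2, Dusp5, Spry2 and Spry4 every Day7 library lies below every Day1 library.

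Zfp36 was the gene of the 10 that changed, and it fell at Day7 relative to Day1. Its deposited values in replicates 1 to 4 were 31.6, 93.9, 90.5 and 141 at 6h, 84.7, 149, 350 and 82.1 at Day1, and 24.7, 10.3, 1.23 and 40.2 at Day7. The highest Day7 library was below the lowest Day1 library, while Day7 replicate 4 was above 6h replicate 1. The value of 1.23 in Day7 replicate 3 stands for 2 reads. Mean values were 19.1 ± 17.1 at Day7 and 166 ± 126 at Day1 (SD, n = 4 each), a ratio of means of 8.70-fold lower. This ratio was 5.50-fold lower without Day1 replicate 3 and 13.8-fold lower without Day7 replicate 4. On the log2(value + 1) scale, where changes of low genes are compressed, the difference was -3.44 ± 0.88 (SE), with a 95% interval from -5.25 to -1.63 and an adjusted p of 0.0318. The test was limma on log2(value + 1) over all 12 libraries, with Benjamini-Hochberg adjustment over the 11211 genes and a threshold of 0.05. In the same test 5.78% of all genes changed between Day7 and Day1, and 3.59% fell, so 1 of 10 is near the background. In bulk blood, fewer cells of a type and less RNA per cell cannot be told apart.

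The fall of Zfp36 kept its direction under each of 26 alternatives but its call under 18 of them. Its log2 differences ran from -5.18 to -2.60 and its adjusted p-values from 0.00176 to 0.258. Leaving out Day1 replicate 2, 3 or 4 ended the call (adjusted p 0.0796, 0.0973 and 0.0823), as did leaving out Day7 replicate 2 or 3 (0.0783 and 0.0806). Calls fell over all genes in those fits as well. They numbered 14, 3 and 20 in the Day1 fits and 50 and 41 in the Day7 fits, against 648 with all libraries. Without Day7 replicate 3 the log2 difference was -2.60. With a term for Y-linked reads it was -2.70 with an adjusted p of 0.258, and under that term 0 genes changed in the whole table. Among libraries without Y-linked reads, the 4 Day7 values of Zfp36 (1.23 to 40.2) were below the value of the single such Day1 library (84.7). Of such 6h libraries, replicate 1 (31.6) lay within the Day7 range and replicate 2 (93.9) above it. No Day7 library had Y-linked reads, so sex and time cannot be fully told apart.

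Btg2, which slows the cell cycle and is a known target of p53, had the second lowest p of the group. Its deposited values were 68.3, 136, 120 and 105 at 6h, 152, 183, 315 and 164 at Day1, and 23.1, 11.7, 35.8 and 118 at Day7. All Day7 libraries were below all Day1 libraries, and all Day1 libraries were above all 6h libraries. The log2 difference between Day7 and Day1 was -2.53 ± 0.77 (SE), with a 95% interval from -4.12 to -0.93 and an adjusted p of 0.0512 in limma, just outside the threshold. Under 10 of the 26 alternatives the adjusted p of Btg2 passed, at values of 0.00172 to 0.0463. Under the others it did not, among them edgeR (0.144) and the term for Y-linked reads. Over limma fits with 1 library left out, its adjusted p ran from 0.0357 to 0.150.

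Dusp1 is the nuclear phosphatase that acts mainly on p38 and JNK. Its deposited values were 71.7, 325, 293 and 270 at 6h, 53.5, 154, 522 and 305 at Day1, and 81.9, 36.0, 23.4 and 119 at Day7. The Day7 and Day1 libraries overlapped, because Day1 replicate 1 (53.5) lay below Day7 replicates 1 and 4. The log2 difference between Day7 and Day1 was -1.81 ± 0.85 (SE) with an adjusted p of 0.158 in limma. In the libraries without Y-linked reads, the Day7 values of 23.4 to 119 surrounded the single Day1 value of 53.5.

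Read ratios within a library do not depend on the scaling between libraries. The ratio of Zfp36 to Dusp1 reads ranged from 0.0526 to 0.338 at Day7 and from 0.269 to 1.58 at Day1. The ratio of Zfp36 to Btg2 reads ranged from 0.0345 to 1.07 at Day7 and from 0.502 to 1.11 at Day1. Both pairs of ranges overlapped, so a difference in the balance between these genes was not resolved.

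The phosphatases specific to ERK are Dusp5 in the nucleus and Dusp6 in the cytoplasm. Dusp5 had deposited values of 1.49, 1.14, 12.1 and 8.81 at 6h, 11.6, 17.6, 9.18 and 32.9 at Day1, and 3.16, 2.30, 0.617 and 2.66 at Day7. Its Day7 libraries were all below its Day1 libraries, and the value of 0.617 was a single read. The log2 difference of Dusp5 between Day7 and Day1 was -2.49 ± 0.85 (SE) with an adjusted p of 0.0686 in limma. Dusp6 had values of 0, 14.4, 9.90 and 5.22 at 6h, 6.80, 5.43, 5.76 and 22.1 at Day1, and 1.44, 2.68, 0 and 11.0 at Day7. Day7 replicate 4 lay within the range of the Day1 libraries of Dusp6, and its log2 difference of -1.55 had an adjusted p of 0.286 in limma.

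Dusp2 and Dusp4 are nuclear phosphatases, and Dusp2 is best known from activated lymphocytes and myeloid cells. Dusp2 was even at Day1, with 8.65, 10.8, 12.9 and 8.95, and uneven at the other times. It had 0.560, 0.757, 0.241 and 9.29 at 6h, and 3.92, 0, 0 and 9.64 at Day7. The 3 low values at 6h rest on 1 to 3 reads each. Dusp4 had 22.2, 3.41, 0.724 and 0 at 6h, 0.494, 0.345, 0 and 0 at Day1, and 0, 3.45, 0 and 3.66 at Day7. Of its 175 reads, 119 came from 6h replicate 1. In that library the mean log2(value + 1) of the T cell markers was 6.01, while the other 6h libraries had 0.80 to 1.60, and the T cell gene Cd3e stood at 144, with at most 0.420 in the other 6h libraries. Their part in the Dusp4 value was not tested.

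The 3 Sprouty genes were low, and none passed the test in any comparison of the limma fit. Spry1 had deposited values of 0, 3.79, 0.483 and 10.3 at 6h, 3.83, 1.44, 0.683 and 2.96 at Day1, and 23.5, 5.74, 0 and 8.65 at Day7. It was the gene with the highest log2 difference between Day7 and Day1, 1.08, but its adjusted p was 0.473 in limma, and the sign turned when values were scaled to all reads (-0.063).

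Spry2 had 7.28, 0, 2.90 and 13.5 at 6h, 0.865, 6.22, 2.28 and 5.49 at Day1, and 0.0688, 0.383, 0 and 0.333 at Day7. The Day7 values stand for 1, 2, 0 and 1 reads, against 7, 198, 30 and 141 reads at Day1. Its log2 difference between Day7 and Day1 was -1.80 with an adjusted p of 0.145 in limma. Spry4 had 14 reads in the 6h libraries together, 91 in the Day1 libraries and 0 in the Day7 libraries. Against a floor of 3 reads over the group, Spry4 was at least 9.39-fold lower at Day7 than at Day1, and at least 3.79-fold lower without Day7 replicate 1. The floor covers counting error only. Of the 14 reads at 6h, 11 came from 6h replicate 3, so a bound for Day7 against 6h would rest on that library. In limma the adjusted p of Spry4 was 0.164 for Day7 versus Day1 and 0.549 for Day7 versus 6h.

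Across the 10 genes, 8 of 10 log2 differences between Day7 and Day1 were negative, with a median of -1.80. Over all tested genes 61.8% were negative, with a median of -0.48. In 5 of the 10 genes (Zfp36, Btg2, Dusp5, Spry2 and Spry4) every Day7 library was below every Day1 library, which held for 14.5% of all genes. For Spry4 this only records zeros at Day7. Its Day1 replicate 4 value was 0.0778 (2 reads), while 1 read was worth 0.191, 0.617 and 0.333 in Day7 replicates 2, 3 and 4. Any read there would have given overlap. Spry4 also passed the filter only through 3 Day1 libraries and 6h replicate 3. An unadjusted p under 0.05 was reached by 7 of the 10 genes and by 29.1% of all genes. The count tests on the recovered reads gave different numbers of changed genes for the same comparison. DESeq2 called 5 of the 10 (Zfp36, Btg2, Dusp1, Dusp5 and Spry2) and 16.3% of all genes. The quasi-likelihood test of edgeR called 0 of the 10, against 0.00892% of all genes. At an unadjusted p under 0.05 in edgeR there were 6 of the 10 and 21.3% of all genes.

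**Figure D2:**
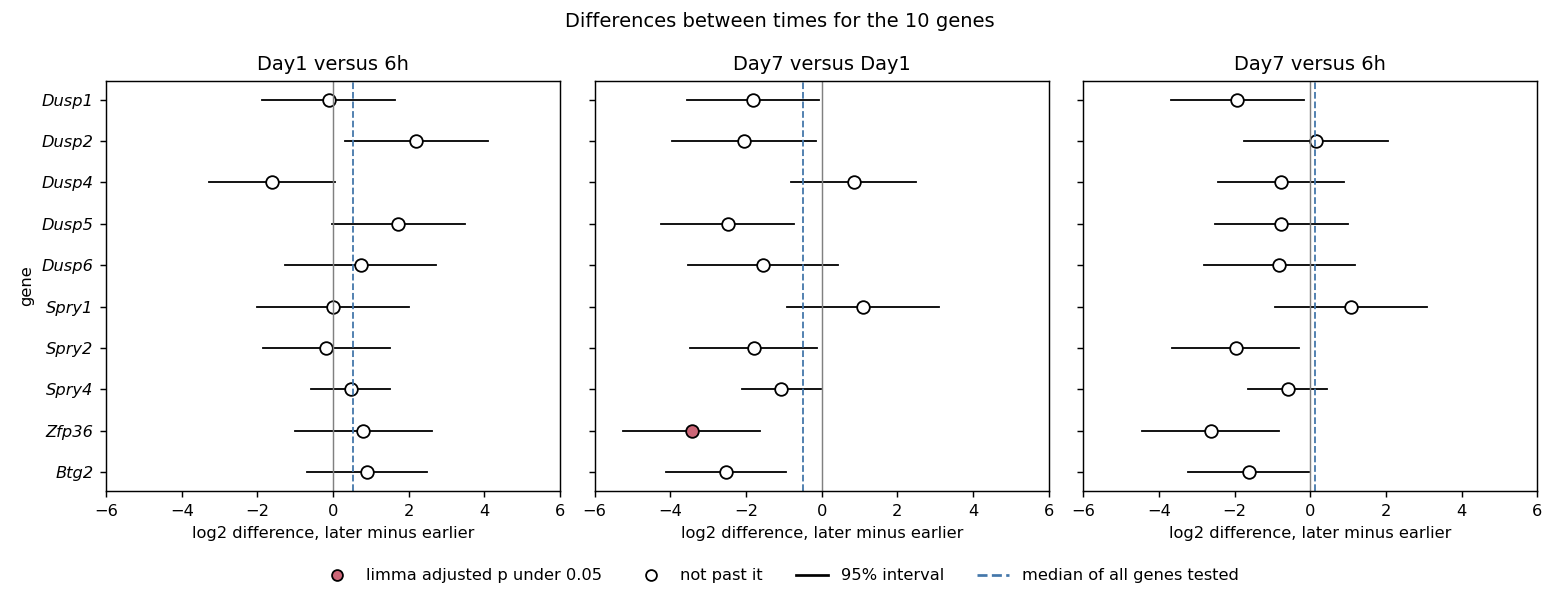
Points are log2 differences of the 10 genes on the log2(value + 1) scale for Day1 versus 6h, Day7 versus Day1 and Day7 versus 6h, bars are 95% intervals, the dashed line is the median of all tested genes, and a filled point passed limma's adjusted p threshold of 0.05. Zfp36 in Day7 versus Day1, at -3.44, is the filled point.

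The scaling between libraries moved these differences. The median log2 difference of all tested genes between Day7 and Day1 was -0.48 with the deposited scaling, -0.75 with median-of-ratios scaling, -1.78 when scaled to all reads and -1.92 when scaled to reads outside haemoglobin. Zfp36 stood at -3.44, -3.82, -5.18 and -5.18 under these scalings, and its difference from the median of all genes was -2.96 with the deposited scaling. Scaled to all reads, 8 of the 10 genes and 35.3% of all genes changed, and scaled to reads outside haemoglobin 8 of the 10 and 31.7%. Of the 10 genes, 8, 8, 7 and 8 lay below the median of all genes in the order of scalings given.

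**Figure D3:**
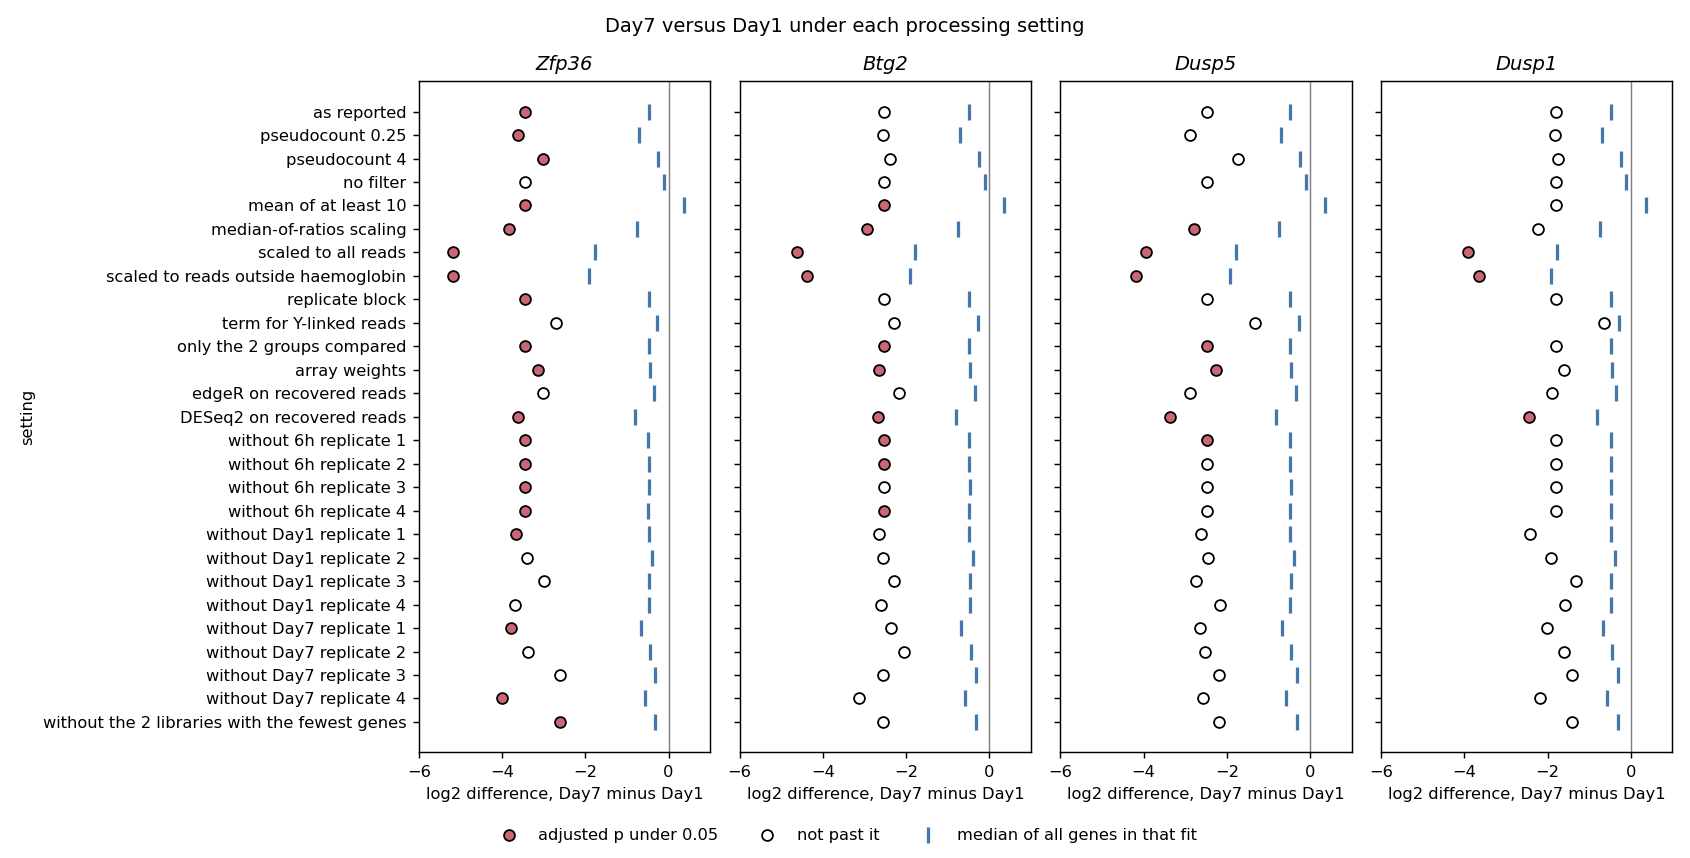
Log2 differences between Day7 and Day1 under each processing setting for Zfp36, Btg2, Dusp5 and Dusp1 (1 panel each), on the scale of each setting, with filled points where the adjusted p was under 0.05 and short blue lines at the median of all genes in that fit. The points of Zfp36 run from -5.18 to -2.60 and stay below 0 in all settings.

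Marker genes of several cell types differed between Day7 and Day1 in the same libraries. Mesothelial markers had mean log2(value + 1) levels of 0.36 to 3.89 at Day7 and 5.58 to 7.86 at Day1, and 5 of their 7 tested genes fell. Mesenchymal and fibroblast markers had 0.92 to 2.93 at Day7 and 3.19 to 5.23 at Day1, and 5 of their 12 tested genes fell. Platelet markers had 9.74 to 10.3 at Day7 and 5.40 to 7.05 at Day1, and 6 of 10 rose. Neutrophil markers had 2.78 to 5.41 at Day7 and 0.07 to 2.05 at Day1, and 2 of 6 tested rose. Keratinocyte markers had 0 to 0.93 at Day7 and 1.72 to 2.32 at Day1, and 1 of 3 tested fell. In the same test 3.59% of all genes fell and 5.78% changed in either direction. In 6h replicate 2 the mesothelial level was 1.32 and the mesenchymal level 0.47. Dusp1, Zfp36, Btg2 and Dusp6 there had 325, 93.9, 136 and 14.4, each above its highest Day7 value. The remaining genes lay within their Day7 ranges, among them Dusp5 (1.14), Spry2 (0) and Spry4 (0). The part of these cell types in the Day7 values was not tested.

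Between Day1 and 6h limma called 0 of the 10 genes, against 0.169% of all genes. At an unadjusted p under 0.05 there was 1, Dusp2, against 11.2% of all genes, and edgeR and DESeq2 each called 0 of the 10, against 0.0803% and 1.78% of all genes. Scaled to all reads, 1 of the 10 (Dusp2) and 10.8% of all genes changed. Dusp2 averaged 10.3 ± 1.96 at Day1 and 2.71 ± 4.39 at 6h (SD, n = 4 each). Its log2 difference was 2.20 ± 0.92 (SE), with an adjusted p of 0.392, the lowest of the 10. Btg2 averaged 204 ± 75.5 at Day1 and 108 ± 29.1 at 6h (SD, n = 4 each), and it was the 1 gene of the 10 whose Day1 libraries were all above its 6h libraries, a pattern shown by 5.52% of all genes. Dusp5 had a log2 difference of 1.72 and Dusp4 one of -1.61, with adjusted p-values of 0.451 and 0.454. The median of the 10 genes was 0.60 and that of all tested genes 0.52, and 4 of the 10 differences and 28.4% of all were negative.

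Between Day7 and 6h, limma called 0 of the 10 genes, against 0.883% of all genes. Zfp36 came closest, with a log2 difference of -2.64 ± 0.88 (SE), a 95% interval from -4.45 to -0.83 and an adjusted p of 0.116. An unadjusted p under 0.05 was reached by 4 of the 10, namely Zfp36, Spry2, Dusp1 and Btg2, and by 18.0% of all genes. edgeR called 0 of the 10, against 0.749% of all genes, and DESeq2 called 3 (Dusp1, Spry2 and Zfp36), against 9.96%. In none of the 10 genes did the groups separate fully, a pattern that 2.38% of all genes showed with Day7 lower and 3.45% with Day7 higher. The log2 difference was negative in 8 of the 10 genes and in 46.2% of all genes, with medians of -0.80 and 0.13. This comparison and that of Day7 with Day1 share the Day7 libraries.

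Genes around the same pathway were described with lists of related genes. The limma calls of these lists come from the fit with all 12 libraries. For Day7 versus Day1 that fit called 648 of all genes, but only 3 were called without Day1 replicate 3. Among other MAP kinase phosphatases (Dusp7, Dusp8, Dusp9, Dusp10 and Dusp16), 3 of 5 were tested and 0 changed between Day7 and Day1 in limma, with 0 at an unadjusted p under 0.05 and 0 called by edgeR or DESeq2. Their median log2 difference was 0.041. Of 9 tested dual-specificity phosphatases outside this class, 0 changed in limma, with 4 at an unadjusted p under 0.05 and 0 called by edgeR or DESeq2. Of 12 other tested feedback inhibitors of receptor tyrosine kinase and Ras signalling, which include the Spred genes and Errfi1, 0 changed in limma or edgeR. At an unadjusted p under 0.05 there were 5, and DESeq2 called 1. Over all genes these 2 rules called 29.1% and 16.3%. The 12 feedback inhibitors had a median of -0.44, close to the -0.48 of all genes.

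Upstream of the phosphatases, 1 of 32 tested genes of Ras, the MAP kinases and their activating kinases changed between Day7 and Day1, a share of 3.12% against 5.78% of all genes. edgeR called 0 of the 32 and DESeq2 3. The changed gene was Map2k3, a kinase that activates p38, and it rose. Its deposited values were 576, 754, 1035 and 725 at Day7, against 46.6, 109, 110 and 56.9 at Day1. Its log2 difference was 3.31 with an adjusted p of 0.0268 in limma, and all Day7 libraries were above all Day1 libraries. Of 17 tested receptor tyrosine kinases and ligands, 2 fell (11.8%), and edgeR called 0 and DESeq2 3. They were Hbegf, a ligand of the EGF receptor (log2 difference -3.97, adjusted p 0.0259), and Fgf1, a fibroblast growth factor (-3.49, adjusted p 0.0415). Hbegf had 1, 2, 0 and 1 reads at Day7, against 170, 1032, 590 and 64 reads at Day1.

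Of the transcription targets of ERK signalling, 5 of 14 tested fell at Day7 relative to Day1 in limma. This was a share of 35.7%, against 3.59% of all genes. It was the highest number among the lists, but the lists differed in size. By share, the relatives of Zfp36 stood higher, with 1 of 2 tested. The lists were drawn up with earlier results of these data known, so this lead is not independent of those results. The median log2 difference of the 14 targets was -2.02. The transcription factor gene Egr1 had deposited values of 9.56, 1.34, 0.617 and 2.66 at Day7, against 88.9, 136, 400 and 111 at Day1, a log2 difference of -5.46 with an adjusted p of 0.00825. Ier3 had 1.58, 0, 0 and 1.33 at Day7, against 31.8, 76.7, 184 and 86.5 at Day1 (-5.68, adjusted p 0.00932). The AP-1 genes Fos (-5.35), Fosb (-3.72) and Junb (-3.01) were the other 3, with adjusted p-values of 0.0137, 0.0453 and 0.0476. Between Day7 and 6h, Ier3, Egr1 and Fos fell as well, by log2 differences of -4.69, -4.28 and -4.36. In that comparison 0.883% of all genes changed in limma. For Day7 versus Day1 edgeR called 0 of the 14 and DESeq2 8, with 10 at an unadjusted p under 0.05 in limma. The shares of all genes under these rules were 0.00892%, 16.3% and 29.1%.

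The partners of Zfp36 and Btg2 were looked at in the same way. Zfp36l1, a relative of Zfp36 that binds the same kind of mRNA, fell at Day7. It had 9.01, 5.17, 1.85 and 6.65 at Day7, against 34.9, 54.6, 65.6 and 85.4 at Day1, a log2 difference of -3.26 with an adjusted p of 0.0282 in limma. Zfp36l2, the other tested relative, had a log2 difference of -0.99 and an adjusted p of 0.464. Of 9 tested mRNAs known to be bound by the Zfp36 protein, 1 changed in limma, Ier3 (11.1%, against 5.78% of all genes), and the list's median was -2.10. At an unadjusted p under 0.05 there were 5 of the 9, DESeq2 called 5 and edgeR 0, against 29.1%, 16.3% and 0.00892% of all genes.

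Of 14 tested BTG and TOB family genes and CCR4-NOT subunits, 1 changed between Day7 and Day1, a share of 7.14%, near the 5.78% of all genes. edgeR called 0 of the 14 and DESeq2 2. Tob2, a relative of Btg2, fell with a log2 difference of -3.01 and an adjusted p of 0.0499, although Day7 replicate 1 (11.0) lay above Day1 replicate 1 (5.93). Among 15 tested p53 targets 2 changed (13.3%), in opposite directions, and edgeR called 0 and DESeq2 2. The cell cycle inhibitor Cdkn1a fell (-3.88, adjusted p 0.0288), and the stress gene Gadd45a rose (4.14, adjusted p 0.0268). Gadd45a had 77.5, 141, 1317 and 204 at Day7, against 56.0, 14.5, 19.2 and 0.778 at Day1, so its highest library was Day7 replicate 3. None of these lists had a changed gene between Day1 and 6h in limma, and edgeR called 0 and DESeq2 at most 1 a list. Unadjusted p-values under 0.05 in limma were reached by 0 to 7 genes a list. The 7 were of the 17 tested receptor tyrosine kinases and ligands, while 11.2% of all genes reached this.

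**Figure D4:**
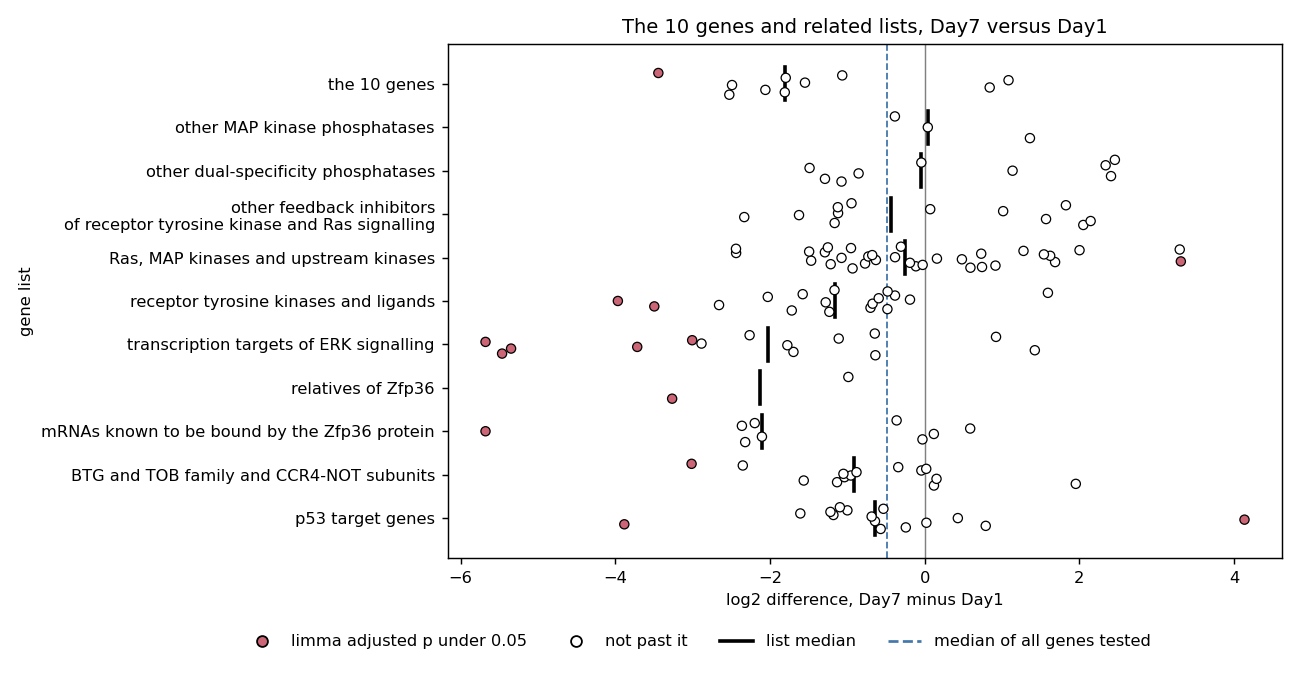
Each point is a tested gene of the list named on the left, placed by its log2 difference between Day7 and Day1; short vertical lines are list medians, the dashed line is the median of all tested genes (-0.48), and filled points passed an adjusted p of 0.05. The targets of ERK signalling, with a median of -2.02, hold 5 filled points to the left of 0.

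The genes with profiles most like each of the 10 were found by the mean absolute difference of centred log2(value + 1) over the 12 libraries. For Zfp36 they were the AP-1 gene Junb (0.26), the immediate early gene Ier2 (0.44) and the AP-1 gene Jun (0.51). Junb had its highest value, 1231, in Day1 replicate 3 and its lowest, 8.02, in Day7 replicate 3, the same libraries as Zfp36. Dusp1 was nearest to Ifngr2 (0.45), Btg2 to Asph (0.44), Dusp5 to 4930506M07Rik (0.29) and Spry1 to Prodh (0.48). Among the 10 themselves the closest pairs were Dusp1 with Zfp36 (0.75), Zfp36 with Btg2 (0.77) and Dusp1 with Btg2 (0.83). The points share libraries and scaling, so a low value here describes a likeness only.

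**Figure D5:**
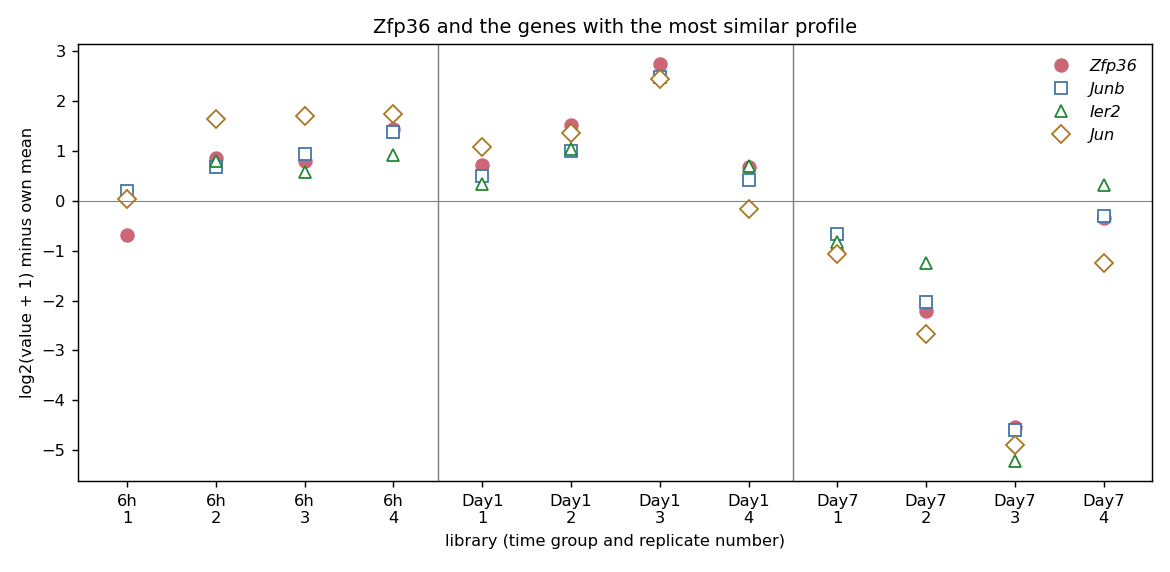
Log2(value + 1) of Zfp36, Junb, Ier2 and Jun in the 12 libraries, each minus its own mean. The points of each gene are highest in Day1 replicate 3 and lowest in Day7 replicate 3.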

How the data were processed

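Bulk RNA-seq of 12 libraries (6h, Day1 and Day7, 4 each) was analysed, with groups from the sample titles. The authors deposited 1 table of signal per gene, named CPM in its file name; reads were processed with STAR 2.7.10, HTSeq 2.0.1 and mm9, per the submitters' processing notes. The scaling step, annotation and strand setting were not given in the sources used, so reads of overlapping antisense genes cannot be told apart. The table's gene lengths were used for levels per kilobase. Of the deposited values, 99.999% were whole multiples of 1 read within 0.001 reads, so reads were recovered for edgeR and DESeq2; columns were not plain CPM.

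limma 3.58.1 (R 4.3.3, trended variance) was fitted to log2(value + 1) of the 11211 genes that reached 1 in 4 or more libraries, with time group as the factor, two-sided, Benjamini-Hochberg threshold 0.05. Fits were tested on simulated data. Alternatives were no filter, a mean of at least 10, a pseudocount of 0.25 or 4, 3 other scalings, a replicate block, a Y-linked term, fits of 2 groups, array weights, edgeR 4.0.16, DESeq2 1.42.0 and left-out libraries. All 10 members, up to 4 changed genes a list by smallest p and the 3 nearest profiles were eligible to be named. Zfp36l2 and the markers given by name were named outside that rule after their values were seen. Members and lists were chosen with earlier results of these data known.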

Additional observations from a re-analysis of the deposited data

Results flagged for a closer look

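In 4 of the 30 combinations of gene and time group, 1 library stood far from the other 3 by Dixon's test at the 95% level. The test was run on deposited values, not on the log2 scale, and all 4 were high values. Chance gives about 1 in 20 only for normally spread values, which low values need not be, so 4 of 30 cannot be set against it. Dusp2 at 6h was 9.29 in replicate 4 and at most 0.757 in the others. Dusp4 at 6h was 22.2 in replicate 1, the library with the highest T cell markers, and at most 3.41 in the others. Dusp6 at Day1 was 22.1 in replicate 4 and at most 6.80 in the others. Spry4 at 6h was 2.66 in replicate 3 (11 reads) and at most 0.373 in the others.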

How the results depend on the processing

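Over the differences of single genes, 646 alternative values kept direction and side of the threshold, 36 newly passed it, 8 no longer passed it (all Zfp36, Day7 versus Day1) and 41 changed sign. The cause was not tested. For Day7 versus Day1, 1 of the 10 genes and 648 of all genes changed in the fit as reported. With no filter 0 of the 10 changed (57 of all genes), as with a term for Y-linked reads (0) or by edgeR (1). With a mean of at least 10 there were 2 (Btg2 and Zfp36, fewer genes tested) and 546 of all genes. Median-of-ratios scaling gave 3 (784 of all genes). Scaled to all reads 8 changed (3963 of all genes), and also 8 with haemoglobin left out of the scaling (3553). With only the 2 groups compared there were 4 (1901 of all genes). Array weights gave 5 (2779 of all genes), and DESeq2 also called 5 (1766). With 1 library left out, 0 to 3 of the 10 changed. There were 3 without 6h replicate 1 (Zfp36, Btg2 and Dusp5), with 1185 of all genes. Without 6h replicate 2 or 4 there were 2 (Zfp36 and Btg2), with 898 and 1154 of all genes. There were 0 without Day1 replicate 2, 3 or 4 (14, 3 and 20 of all genes). The same held without Day7 replicate 2 or 3 (50 and 41 of all genes). For Day1 versus 6h, 1 gene (Dusp2) changed when scaled to all reads, and for Day7 versus 6h DESeq2 called 3. With 1 library left out, 0 changed in either comparison. Dusp4 and Spry4 fell under the filter in some of these fits and then have no value.

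Signs turned in these differences, none of which passed the test. For Day1 versus 6h, Dusp1 became 1.23 scaled to all reads and 0.75 scaled outside haemoglobin, with -0.63 to 0.48 over left-out libraries. Dusp6 became -0.086 with array weights and -0.11 without the 2 libraries with the fewest genes (left-out range -0.11 to 1.21). Spry1 became 0.35 with a pseudocount of 0.25, 0.0090 with median-of-ratios scaling, 0.013 with array weights, 0.88 scaled to all reads and 1.02 outside haemoglobin (left-out range -0.53 to 0.63). Spry2 became 0.090 with a pseudocount of 0.25, 0.72 scaled to all reads, 0.54 outside haemoglobin, 0.28 with array weights and 0.10 without the 2 libraries with the fewest genes (left-out range -0.92 to 0.37). For Day7 versus 6h, Dusp2 became -0.14 with a pseudocount of 0.25, -0.072 with median-of-ratios scaling, -0.077 scaled to all reads, -0.22 outside haemoglobin and -0.060 by DESeq2 (left-out range -0.52 to 0.84), Dusp4 became 0.084 with array weights and Dusp5 0.0074 with the Y-linked term. For Day7 versus Day1, Dusp4 became -0.56 with the Y-linked term, and Spry1 became -0.063 scaled to all reads and -0.084 outside haemoglobin.

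The replicate block gave Zfp36 a difference of -3.44 for Day7 versus Day1 with an adjusted p of 0.0351 and changed no call of the 10 genes. Deviations of libraries with the same number correlated at -0.23 to 0.12 across genes, so the numbers were not taken to pair libraries. Depth limits Spry2, Spry4 and Dusp4, which had 4, 0 and 29 reads at Day7 in all.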
